A study of Mus musculus with 6 samples.

Results

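The epidermal differentiation complex is a dense cluster of genes on mouse chromosome 3 whose products build the outer, cornified layer of the skin. Members were taken by symbol: the late cornified envelope genes (Lce), the small proline-rich genes (Sprr), the S100a calcium-binding genes, the fused S100 genes Crnn, Flg2, Hrnr and Rptn, and the single genes Lor and Ivl. The array carried 63 probes for 54 members, and 41 members passed the filter on dim probes, out of 22823 genes and unnamed transcripts measured. Telogen skin, in the resting phase of the hair cycle, was profiled on 6 one-colour Agilent arrays from untreated male mice of mixed C57Bl6/129Sv background. The KO group held 3 mice with Sox4 conditionally deleted in skin, aged 17, 18 and 16 weeks, and the WT group held 3 wild-type mice aged 20, 19 and 18 weeks. The groups shared only the age of 18 weeks, so age and genotype are largely confounded. What drives the deletion, and in which skin cells, was not given in the sources. The 3 different ages within each group were taken to mark separate animals. Expression of Flg, Lce1j, Lce6a, Sprr2a1 and Sprr2a3 was not analysed here, and for these genes the promoter windows alone were used.

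As keratinocytes leave the basal layer and differentiate, they replace the plasma membrane by a cornified envelope of cross-linked protein. Loricrin and involucrin are the main precursors, the small proline-rich proteins bridge them, and the late envelope proteins are added last. The fused S100 proteins, which combine an S100 domain with a long repeat region, bundle keratin or enter the granules of the granular layer, while most S100a proteins are calcium sensors with roles well beyond the envelope. Transglutaminases join these proteins together.

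Sox4 read 78.7, 69.0 and 59.5 units of processed signal on the KO arrays, against 503.7, 764.2 and 735.2 units on the WT arrays. It fell by 3.56 on the log2 scale (SE 0.13, n = 3 per group, limma adjusted p = 0.00135). Over the 6 arrays, 52.1% to 66.4% of probes were well above background, and no spot was saturated. Slide 2 held KO replicate 1 with WT replicates 2 and 3, slide 1 held KO replicate 3 with WT replicate 1, and slide 3 held KO replicate 2 alone. With 3 arrays per group, array number limits the precision. Levels are given as log2 signal relative to the array's 75th percentile, so that 0 is the percentile itself, and differences are KO minus WT. In bulk skin, fewer cells of a type and less RNA per cell cannot be told apart.

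Promoter windows are shown for members on which the results turn: Lor, a main envelope precursor, Crnn and S100a3, whose KO levels were the farthest above WT among the members, and S100a7l2, whose KO level was the farthest below. They are RefSeq windows of build GRCm38.p6, from 250 bases before to 50 bases after the start, at chr3:92083093-92083392 on the minus strand (Lor), chr3:93144539-93144838 on the plus strand (Crnn), chr3:91090756-91091055 on the minus strand (S100a7l2) and chr3:90599964-90600263 on the plus strand (S100a3, the last of 4 annotated starts along the chromosome). Each reads 5′ to 3′ along its gene, and capitals mark 4 motifs on either strand. The TATA box was searched as TATAAA. The site of AP-1 was searched as TGANTCA. The core bound by Klf factors was searched as CCACCC. The core bound by Lef and Tcf was searched as CTTTGAT.
Lor: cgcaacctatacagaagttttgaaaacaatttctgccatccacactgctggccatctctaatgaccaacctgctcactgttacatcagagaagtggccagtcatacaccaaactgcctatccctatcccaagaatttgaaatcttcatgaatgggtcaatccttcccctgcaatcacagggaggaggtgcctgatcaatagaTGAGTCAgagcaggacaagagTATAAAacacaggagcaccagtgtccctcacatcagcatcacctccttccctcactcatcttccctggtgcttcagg
Crnn: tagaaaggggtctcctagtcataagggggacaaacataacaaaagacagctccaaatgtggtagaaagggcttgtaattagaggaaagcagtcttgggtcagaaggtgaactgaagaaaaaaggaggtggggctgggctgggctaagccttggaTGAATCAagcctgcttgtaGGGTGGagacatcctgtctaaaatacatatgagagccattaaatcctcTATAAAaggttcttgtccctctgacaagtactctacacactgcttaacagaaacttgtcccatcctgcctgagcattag
S100a7l2: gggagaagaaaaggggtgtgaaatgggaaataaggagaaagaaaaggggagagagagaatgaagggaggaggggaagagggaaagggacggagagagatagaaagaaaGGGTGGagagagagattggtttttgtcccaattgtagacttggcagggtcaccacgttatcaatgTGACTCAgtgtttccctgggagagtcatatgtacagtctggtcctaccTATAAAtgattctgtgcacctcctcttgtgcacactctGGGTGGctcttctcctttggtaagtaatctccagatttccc
S100a3: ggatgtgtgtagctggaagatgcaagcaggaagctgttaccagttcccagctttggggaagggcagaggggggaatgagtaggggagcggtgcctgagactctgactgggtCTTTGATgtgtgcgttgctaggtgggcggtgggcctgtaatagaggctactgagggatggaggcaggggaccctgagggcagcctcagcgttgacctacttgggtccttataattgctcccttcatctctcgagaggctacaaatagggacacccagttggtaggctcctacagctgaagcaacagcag

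With positions given for the first base of a match and 0 for the start itself, Lor held TATAAA at −27 and an AP-1 site at −48. Crnn held TATAAA at −29, an AP-1 site at −96 and a Klf core on the opposite strand at −77. S100a7l2 carried TATAAA at −29, an AP-1 site at −77 and Klf cores on the opposite strand at −142 and 9. The S100a3 window printed above held the Lef and Tcf core at −139 and neither of the first 2 motifs named. The third of the 4 S100a3 windows held TATAAA at −52 and a Klf core on the opposite strand at −141. The first and the second held none of the motifs searched, and which start skin uses was not measured. Across the complex the families differed in these letters. TATAAA stood in 10 of 14 Sprr, 4 of 5 fused S100, 5 of 16 S100a and 4 of 20 Lce windows, 43.9% of the 57 windows of the complex, against 13.6% of all 32851 mouse windows. TGANTCA, which reads the same on both strands, stood in 9 of 14 Sprr, 4 of 5 fused S100, 3 of 16 S100a and 0 of 20 Lce windows, 31.6% of the complex against 7.81% of all windows. The Sox core AACAAAG stood in 2 of the 57 windows (3.51%), Lce6a and Sprr2e, against 5.85% of all windows. CTTTGAT, which can share its AAAG stretch with a Sox core read on the other strand, stood in 2 (3.51% against 3.73%), and CCACCC in 20 (35.1% against 31.5%). Neighbouring Sprr2 and Lce promoters are near copies of each other, so these windows are not independent, and a match is a description of letters.

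No member of the complex passed the threshold. In the limma fit, 0 of 41 members had an adjusted p under 0.05, where 0.0219% of all 22823 did (0.00438% higher and 0.0175% lower in KO), and the lowest adjusted p among the members was 0.360. An unadjusted p under 0.05 was found for 3 members, Sprr4, S100a10 and S100a7l2, all lower in KO (7.32%, against 5.5% of all genes lower). For higher levels the count was 0, against 6.26% of all genes, and in either direction 3 members compare with 11.8% of all genes. The median difference was −0.17 over the members and −0.085 over all genes. It was below 0 for 27 members and above 0 for 14, against 14629 and 8194 of all genes.

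Some members separated the groups without passing the test. Every KO array lay below every WT array for 7 members (Lor, Sprr2a2, Sprr4, Flg2, S100a6, S100a10 and S100a7l2), or 17.1% against 11.8% of all genes. For 0 members did every KO array lie above every WT array, against 7.56% of all genes, and the 7 compare with 19.3% of all genes separated in either direction. The count of members below WT changed with the arrays and the scaling used, and with fewer arrays more of all genes separated. Without WT replicate 1 the count was 19 (27.7% of all genes), 11 without KO replicate 1 (15.8%) and 4 with each array scaled to its median (7.79%). Leaving out any other single array gave 7 to 10 (15.1% to 25.6%). A difference of at least 1 log2 unit was found upward for S100a3 and Crnn (3.18% of all genes) and downward for S100a7l2 (1.24%).

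**Figure D1:**
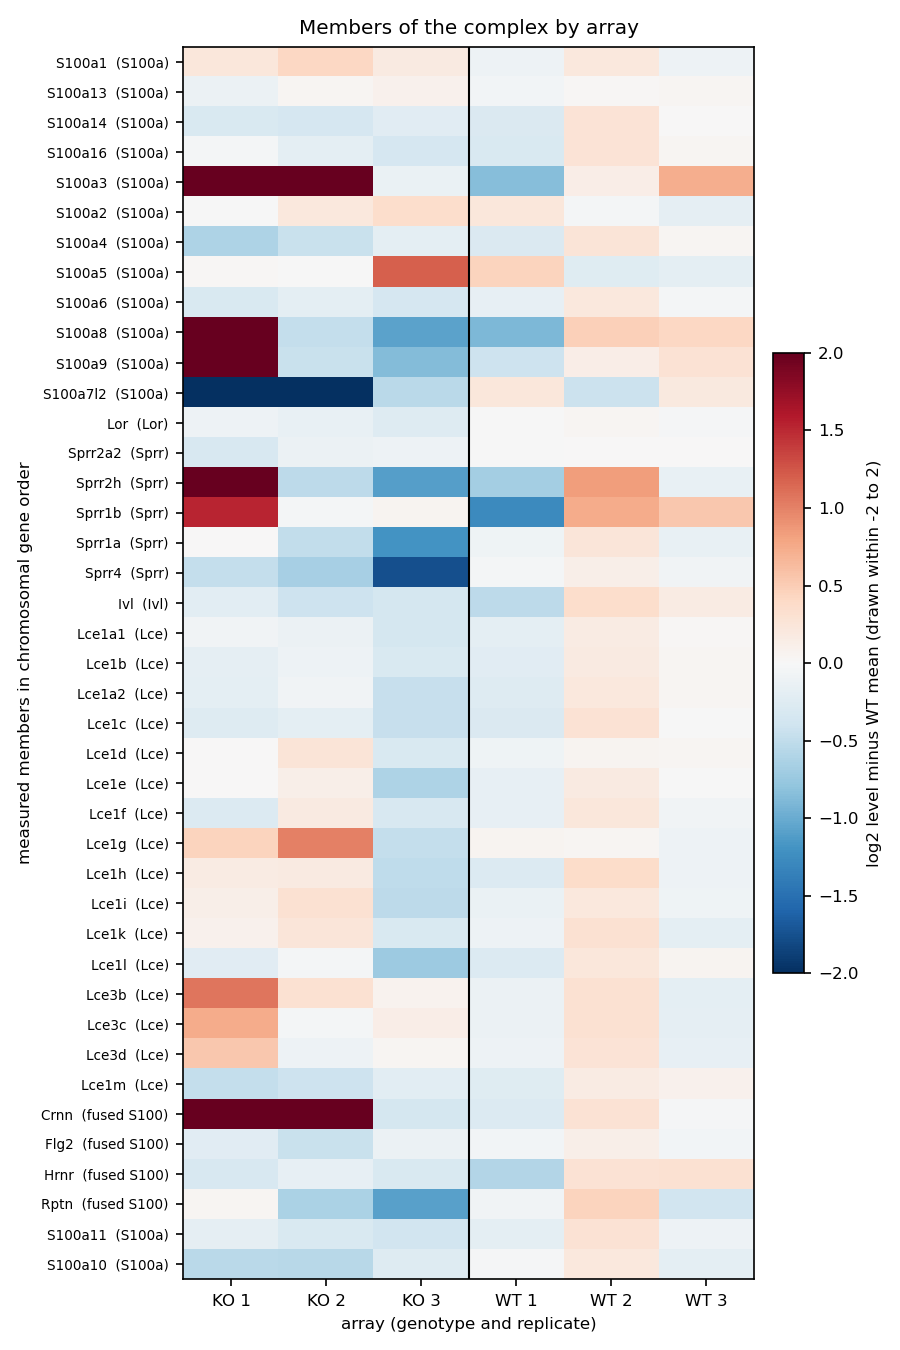
Level of each of the 41 measured members (rows, in chromosomal order) on the 3 KO and 3 WT arrays (columns), as log2 level relative to its own WT mean, with colours drawn within −2 to 2. S100a3 and Crnn are dark red on KO replicates 1 and 2, S100a8, S100a9 and Sprr2h on KO replicate 1, and most Lce rows are blue on KO replicate 3.

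Lor encodes loricrin, the glycine-rich bulk protein of the envelope. Its log2 level was 9.41, 9.36 and 9.25 in KO skin, against 9.50, 9.55 and 9.49 in WT skin. All KO arrays lay just below all WT arrays. The difference was −0.17 (SE 0.11, adjusted p = 0.536, 95% interval −0.43 to 0.084). Within slide 1 the difference was −0.25 and within slide 2 it was −0.11. Ivl encodes involucrin, laid down early beneath the membrane. Its level was 1.27, 1.06 and 1.13 in KO skin, against 0.96, 1.84 and 1.64 in WT skin. WT replicate 1 was the lowest of the 6 and the groups overlapped. The difference was −0.33 (SE 0.24, adjusted p = 0.572), and its sign turned within slide 1, where it was 0.17, against −0.47 within slide 2. A second probe for Ivl read 0.57, 0.061 and 0.27 in KO skin, against 0.35, 1.26 and 1.26 in WT skin. Its difference was −0.65, KO replicate 2 was its lowest array, and on slide 1 KO replicate 3 lay below WT replicate 1.

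The Lce genes, of which 16 of 19 with a probe were measured, had a median difference of −0.09. Of the 13 measured genes named Lce1, 11 were lower in KO, with a median difference of −0.16, where 14629 of all 22823 genes were lower. The 3 measured Lce3 genes had a median difference of 0.28, with a score (the median level relative to the WT mean) of 0.75, −0.036 and 0.067 on the KO arrays, against −0.11, 0.30 and −0.18 on the WT arrays, so that KO replicate 1 alone lay above the WT range. A difference between the Lce1 and Lce3 genes was not tested. None of the 16 passed the test, and 0 separated the groups. Lce1m had the smallest p of the family. Its level was 7.41, 7.48 and 7.69 in KO skin, against 7.65, 8.06 and 7.98 in WT skin. Only KO replicate 3 reached into the WT range, and the difference was −0.37 (SE 0.15, adjusted p = 0.427). Lce1c and Lce1l differed by −0.30 and −0.33 (adjusted p = 0.520 and 0.555), and Lce1a1 and Lce1a2, close copies so that which of them a probe reads is uncertain, by −0.18 and −0.25 (adjusted p = 0.604 and 0.565).

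Lce3b, of a group linked in humans to psoriasis risk, read −0.086, −0.85 and −1.09 in KO skin, against −1.27, −0.85 and −1.36 in WT skin. KO replicate 1 stood above the other 5 arrays, which overlapped, and the difference was 0.48 (SE 0.29, adjusted p = 0.527). Lce1g varied the most in the family. It read 2.19, 2.75 and 1.27 in KO skin, against 1.81, 1.79 and 1.64 in WT skin. The 3 KO arrays lay on both sides of the WT arrays, and the difference of 0.32 (SE 0.35, adjusted p = 0.688) was −0.016 without KO replicate 2. The other 9 Lce members differed by −0.20 to 0.28, with adjusted p of 0.572 or more. The members Lce3a, Lce3e and Lce3f did not pass the filter on dim probes.

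**Figure D2:**
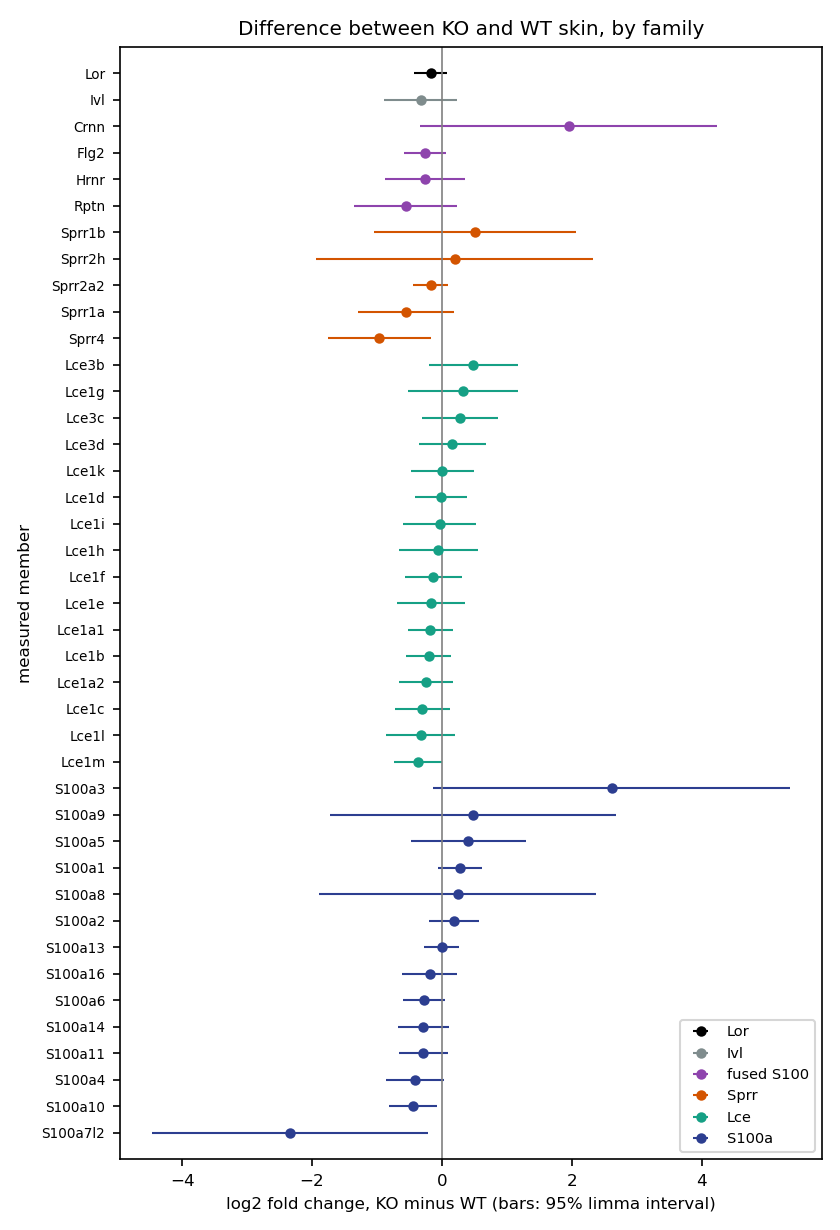
Log2 difference of KO minus WT (horizontal axis) for each measured member, grouped and coloured by family, with points at the limma estimate and bars at its 95% interval (3 arrays per group). Most Lce points lie within 0.5 log2 units of 0, while S100a3, Crnn and S100a7l2 lie farthest from 0 with wide bars.

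Of the Sprr genes, which encode the cross-bridging proteins, 5 of 14 with a probe were measured. Their differences ran from −0.97 to 0.51, 3 of them below 0, with a median of −0.18. Sprr4 read 2.62, 2.43 and 1.35 in KO skin, against 3.06, 3.21 and 3.03 in WT skin. All KO arrays lay below all WT arrays, and KO replicate 3 was the lowest by over 1 log2 unit. The difference of −0.97 (SE 0.33) had an unadjusted p of 0.0239 and an adjusted p of 0.360. It was −1.71 within slide 1, −0.50 within slide 2, −0.57 without KO replicate 3 and −0.41 with age as a covariate. The fit with age cannot fully separate age from genotype, since KO mice were mostly younger.

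Sprr1a, an early marker of envelope assembly, read 5.20, 4.70 and 4.004 in KO skin, against 5.10, 5.44 and 5.04 in WT skin. KO replicate 1 lay within the WT range and the other KO arrays below it, for a difference of −0.56 (SE 0.31, adjusted p = 0.504). Sprr2a2 read 7.95, 8.16 and 8.17 in KO skin, against 8.25, 8.27 and 8.28 in WT skin. The groups separated by a narrow gap, at a difference of −0.18 (SE 0.11, adjusted p = 0.547). A second probe for Sprr2a2 disagreed, with 1.92, 2.73 and 0.91 in KO skin, against 2.15, 0.27 and 3.08 in WT skin. The Sprr2 genes are close copies, so which of them a probe reads is uncertain.

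Sprr1b and Sprr2h passed the filter through 1 group each. Sprr1b was well above background on 3 KO and 2 WT arrays and read −1.38, −2.94 and −2.83 in KO skin, against −4.17, −2.16 and −2.36 in WT skin. WT replicate 1 was the lowest and KO replicate 1 the highest, so that the difference of 0.51 (SE 0.65, adjusted p = 0.727) was −0.13 without WT replicate 1. Sprr2h, well above background on 2 KO and 3 WT arrays, differed by 0.20 (SE 0.88, adjusted p = 0.928), and by −0.82 without KO replicate 1. The remaining 9 Sprr members with a probe, Sprr2b, Sprr2d, Sprr2e, Sprr2f, Sprr2g, Sprr2i, Sprr2j-ps, Sprr2k and Sprr3, did not pass the filter.

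Among the 4 fused S100 members taken by symbol, 3 were lower and the median difference was −0.26. Tchh and Tchhl1, fused S100 genes outside these members, differed by 3.55 and 3.15 (adjusted p = 0.436 and 0.377) and are described below. Flg2, a filaggrin relative of the granular layer, read 5.17, 4.95 and 5.28 in KO skin, against 5.33, 5.50 and 5.34 in WT skin. KO replicate 3 came close to the WT arrays without reaching them, and the difference was −0.26 (SE 0.13, adjusted p = 0.486). Hrnr, or hornerin, read 1.45, 1.61 and 1.46 in KO skin, against 1.18, 2.05 and 2.07 in WT skin, and WT replicate 1 was again the lowest array (difference −0.26, adjusted p = 0.658). Rptn, or repetin, read −0.67, −1.35 and −1.79 in KO skin, against −0.78, −0.27 and −1.09 in WT skin. The groups overlapped, at a difference of −0.56 (SE 0.33, adjusted p = 0.529).

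Crnn, which encodes cornulin, a protein of stratified squamous epithelia, departed in direction from Flg2, Hrnr and Rptn. It read 0.68, −0.42 and −3.32 in KO skin, against −3.24, −2.69 and −2.99 in WT skin. KO replicates 1 and 2 stood above all WT arrays, and KO replicate 3 was the lowest of the 6. The difference was 1.95 (SE 0.95, adjusted p = 0.473), 3.10 without KO replicate 3 (adjusted p = 0.0517) and −0.34 with KO replicate 3 alone. It was −0.077 within slide 1 and 3.52 within slide 2. Its neighbours Tdpoz8 and Flg2 differed by −0.23 and −0.26.

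The S100a family, with 14 of 15 members measured, had a median difference of −0.10, with 8 below 0 and 6 above. S100a10, the partner of annexin A2 at the cell membrane, read 4.17, 4.17 and 4.46 in KO skin, against 4.70, 4.93 and 4.52 in WT skin. All KO arrays lay below all WT arrays, with KO replicate 3 and WT replicate 3 close together. The difference was −0.45 (SE 0.15, unadjusted p = 0.0245, adjusted p = 0.363). S100a6, or calcyclin, read 7.29, 7.39 and 7.26 in KO skin, against 7.43, 7.80 and 7.56 in WT skin, again without overlap (difference −0.28, SE 0.13, adjusted p = 0.463). S100a4, abundant in fibroblasts and immune cells, differed by −0.42 (SE 0.19, adjusted p = 0.444).

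S100a7l2, a mouse gene of the psoriasin group, had the most negative difference of the complex. It read 0.91, −1.27 and 2.53 in KO skin, against 3.28, 2.64 and 3.26 in WT skin. KO replicate 3 nearly met WT replicate 2, while KO replicates 1 and 2 lay well below. The difference was −2.34 (SE 0.89, unadjusted p = 0.0358, adjusted p = 0.395, 95% interval −4.47 to −0.21), −0.76 within slide 1, −2.04 within slide 2 and −1.34 without KO replicate 2.

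S100a3, a calcium- and zinc-binding protein known from the hair cuticle, read 3.31, 3.25 and −0.84 in KO skin, against −1.56, −0.58 and 0.025 in WT skin. KO replicates 1 and 2 stood more than 3 log2 units above every WT array, and KO replicate 3 lay within the WT range. The difference was 2.61 (SE 1.14, adjusted p = 0.439), 3.99 without KO replicate 3 (adjusted p = 0.0503) and −0.14 with KO replicate 3 alone. It was 0.72 within slide 1 and 3.59 within slide 2. Its neighbours on the chromosome, S100a16 and S100a2, differed by −0.19 and 0.19. S100a13, which assists the release of growth factors, varied least in the family, at 3.42, 3.58 and 3.63 in KO skin, against 3.50, 3.56 and 3.58 in WT skin. Its difference of −0.0020 turned sign under 6 of the tested alternatives, where it was at most 0.081, and it was 0.13 within slide 1. S100a2 read −3.59, −3.37 and −3.23 in KO skin, against −3.36, −3.62 and −3.78 in WT skin, with overlap (difference 0.19, adjusted p = 0.614). The other 7 measured S100a members differed by −0.29 to 0.48, with adjusted p of 0.486 or more. S100a7a did not pass the filter.

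The high levels of S100a3 and Crnn on KO replicates 1 and 2 were seen for other genes of the locus as well. Trichohyalin (Tchh), a fused S100 protein of the inner root sheath, read 5.90, 5.00 and −0.33 in KO skin, against −0.15, 0.26 and −0.20 in WT skin. Tchhl1, another fused S100 gene, differed by 3.15 (adjusted p = 0.377), Prr9, the neighbour of Lor and named after its values were seen, by 2.32 (adjusted p = 0.474), and Kprp, a keratinocyte proline-rich protein, by −0.30 (adjusted p = 0.437). The 13 measured of 17 listed locus genes had a median difference of −0.14, with 10 below 0 and none past the threshold. This pattern was noticed after the values were seen. It held, at 1 log2 unit or more above the other 4 arrays, for 2 of 41 members, against 0.407% of all genes.

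Markers of the hair shaft and inner root sheath were high on the same arrays. Their score, the median over 18 measured of 27 listed genes of the level minus the WT mean, was 3.50, 3.13 and −0.100 on the KO arrays, against −0.11, 0.18 and −0.076 on the WT arrays. Their summed level, in multiples of the 75th percentile, ran from 26.1 to 295 in KO skin and from 23.5 to 28.3 in WT skin. None of the 18 passed the test, 17 were higher in KO, and Crym, Krt86 and Padi3 had the smallest p (differences 2.86, 4.34 and 3.97). Padi3 was well above background on all 3 KO arrays and on 1 WT array, and passed the filter through the KO group. Krt25, Krt26, Krt32, Krt33b, Krt34, Krt74 and Krt82 did not pass the filter. The part of these cells in the values of S100a3 and Crnn was not tested. Whether the skin on every array was in telogen was not tested either.

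**Figure D3:**
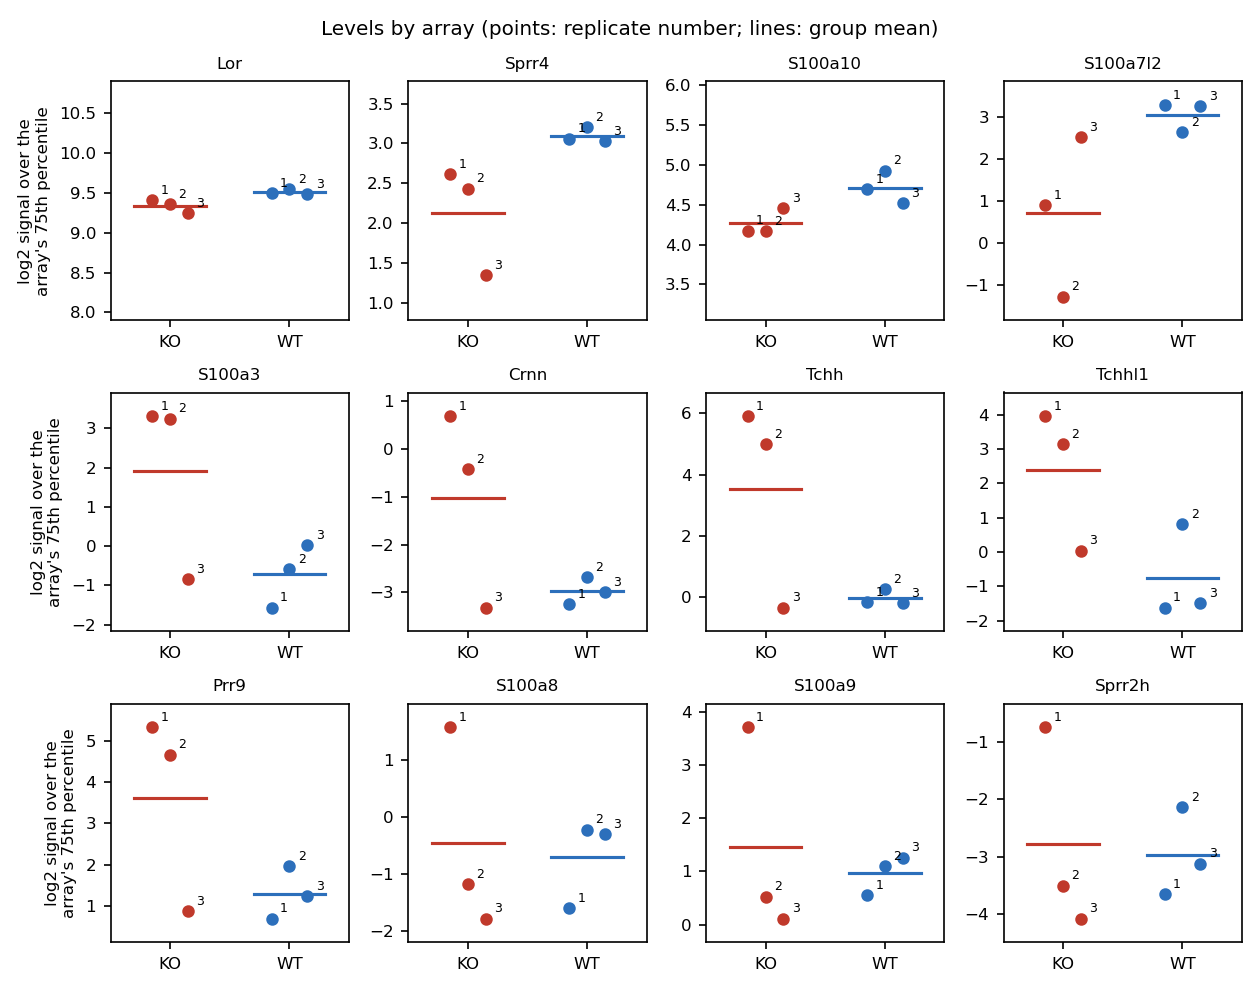
Log2 level on each array (points, labelled by replicate number) with group means (lines) for 9 members and 3 other genes of the locus, KO left of WT in each panel; vertical scales differ between panels. KO replicates 1 and 2 stand above the rest for S100a3, Crnn, Tchh, Tchhl1 and Prr9, and KO replicate 1 alone for S100a8, S100a9 and Sprr2h.

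S100a8 and S100a9, the paired subunits of calprotectin that neutrophils carry and stressed keratinocytes make, were named after their values were seen. S100a9 read 3.71, 0.53 and 0.11 in KO skin, against 0.56, 1.10 and 1.26 in WT skin. S100a8 read 1.57, −1.17 and −1.77 in KO skin, against −1.60, −0.22 and −0.29 in WT skin. KO replicate 1 was far above the other 5 arrays for each, and KO replicate 3 was the lowest of the 6. KO replicate 2 lay below all WT arrays for S100a9 and within the WT range for S100a8. The differences were 0.48 (SE 0.91, adjusted p = 0.819) and 0.24 (SE 0.89, adjusted p = 0.908). KO replicate 1 stood at least 1 log2 unit above the other 5 arrays for 4 members, S100a8, S100a9, Sprr2h and Crnn, against 0.162% of all genes. For Crnn, KO replicate 2 also stood above all WT arrays. This count was made after the values were seen and includes S100a8 and S100a9 themselves, so it is a description.

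The score of the neutrophil markers was 0.26, 0.17 and 0.024 on the KO arrays, against 0.36, −0.17 and −0.10 on the WT arrays (7 measured of 12 listed), and their summed level was 105 to 115 in KO skin and 79.2 to 120 in WT skin. Ngp, Ltf, Cxcr2 and Mmp8 did not pass the filter. Csf3r, Mpo and Camp had the smallest p, with differences of 0.20, −1.10 and 0.16. Retnlg, a marker of that list named after its values were seen, read −1.34, −3.74 and −3.23 in KO skin, against −2.35, −4.49 and −2.92 in WT skin. It too was at least 1 log2 unit higher on KO replicate 1 than on the other 5 arrays. Retnlg was well above background on 3 KO and 2 WT arrays, and passed the filter through the KO group. No other measured marker of the list was highest on KO replicate 1. Hyperproliferative keratinocyte markers were lower in KO for all 4 measured of 7 listed. Their score was −0.29, −0.77 and −0.47 on the KO arrays, against −0.33, 0.44 and −0.11 on the WT arrays. KO replicate 1 thus lay within the WT range. Krt16 and Krt17 separated the groups (differences −0.69 and −0.33, adjusted p = 0.346 and 0.437), as 11.8% of all genes did with KO below WT. The part of neutrophils or of stressed keratinocytes in the levels of S100a8 and S100a9 was not tested.

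KO replicate 3 carried the lowest level for 23 of 41 members, against 10.3% of all genes, and for 12 of 16 Lce genes. WT replicate 2 carried the highest for 22 of 41, against 29.1% of all genes. All members share the same arrays and some Lce genes are close copies, so these counts are not of independent genes. The Lce score was 0.011, 0.041 and −0.33 on the KO arrays, against −0.16, 0.22 and −0.043 on the WT arrays, so that KO replicates 1 and 2 lay within the WT range. For Sprr the score was 0.010, −0.49 and −1.10 on the KO arrays, against −0.091, 0.25 and −0.071 on the WT arrays. With KO replicate 3 as the lone KO array, 27 members lay below every WT array (24.7% of all genes). The KO arrays spanned over 1 log2 unit for 13 of 41 members, against 2283 of all 22823 genes, and the WT arrays for 4, against 1869.

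On general keratinocyte markers KO replicate 3 was not the lowest array. Suprabasal markers such as Calml3, Krt2 and Lypd3 (differences −0.34, −0.47 and −0.26) scored −0.22, −0.30 and −0.17 on the KO arrays, against −0.30, 0.25 and 0.080 on the WT arrays, with 9 of 10 lower. Basal markers such as Krt15, Krt5 and Itga6 (differences −0.41, −0.22 and −0.21) scored −0.35, −0.17 and −0.037 on the KO arrays, against −0.26, 0.26 and −0.0082 on the WT arrays, with all 8 lower. Within slide 1 the median difference was 0.16 for suprabasal and 0.12 for basal markers, against −0.35 and −0.44 within slide 2. WT replicate 2 was the highest array in both lists, as in the Lce, Sprr, S100a and fused S100 families. Their part in the values of the complex was not tested.

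**Figure D4:**
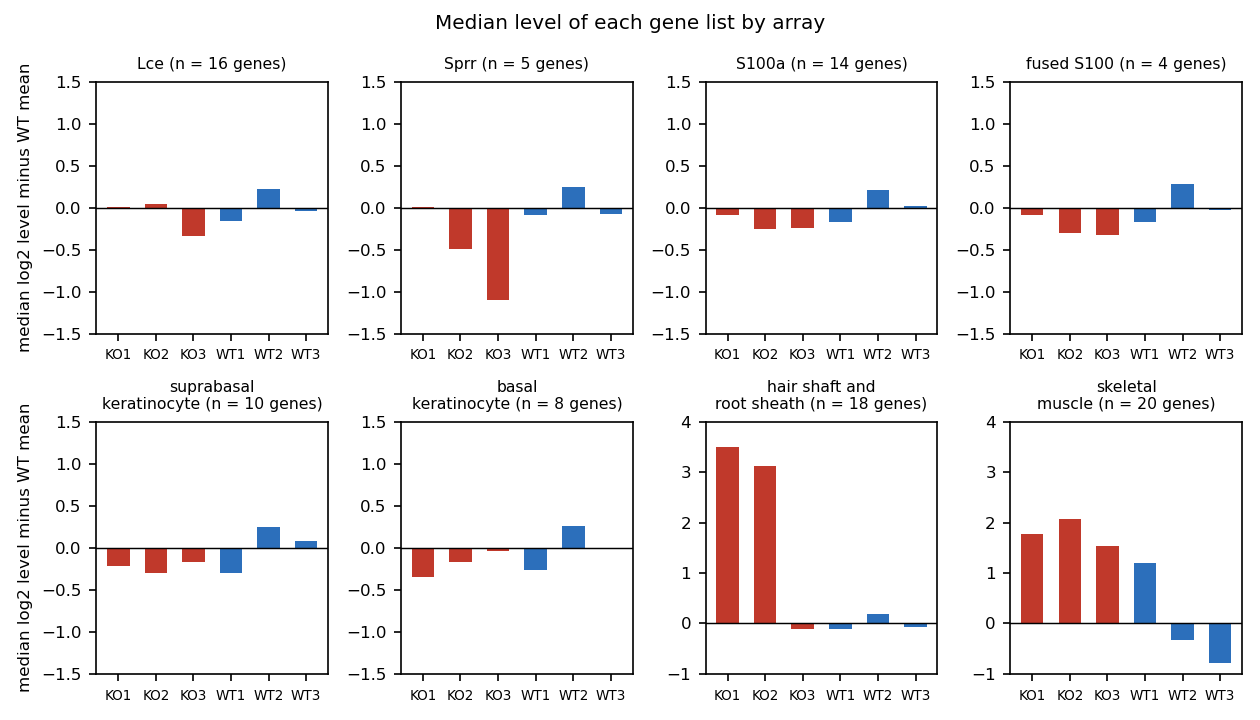
Score of each list on each array, the median over its genes of log2 level minus the gene's WT mean (bars, KO red and left, WT blue and right), for the 4 families and 4 marker lists; the hair and muscle panels have a wider vertical scale. KO replicate 3 is the lowest bar for Lce and Sprr, and WT replicate 2 the highest in every family and both keratinocyte lists.

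Partners of the envelope outside the complex were read beside it. Of 22 genes for transglutaminases, scaffold proteins, lipid enzymes, proteases and inhibitors, 19 were lower in KO, where 14629 of all 22823 genes were. The median was −0.24, against −0.17 for the members, and none passed the test. Within slide 1 the median was 0.022, and within slide 2 it was −0.31, against −0.16 and −0.11 for the members. KO replicates 1 and 3 scored −0.20 and −0.17, inside the WT range of −0.22 to 0.22. KO replicate 2 was the lowest array, at −0.35. Elovl4, which elongates the very long fatty acids of barrier lipids, had the smallest p at a difference of −0.66 (adjusted p = 0.274). Padi1, a citrullinating enzyme, differed by 0.86 (adjusted p = 0.421) and Stfa3, a cysteine protease inhibitor, by −0.40 (adjusted p = 0.449). Of 22 known regulators of the complex, 16 were lower, where 14629 of all 22823 genes were. Their median was −0.16 (0.016 within slide 1), and none passed. Fosl1, one of the 16, was well above background on 2 KO and 3 WT arrays, and passed the filter through the WT group. Satb1, which organises chromatin at the locus, differed by 0.35 and Prdm1, a transcriptional repressor of the granular layer, by −0.34 (adjusted p = 0.417 and 0.418). They alone of the 22 separated the groups, Satb1 with KO above WT (7.56% of all genes) and Prdm1 with KO below WT (11.8%). Klf4, required for the skin barrier, differed by −0.24 (adjusted p = 0.509).

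Markers of other cell types of bulk skin differed between the arrays too. Skeletal muscle markers scored 1.78, 2.07 and 1.54 on the KO arrays, against 1.20, −0.32 and −0.79 on the WT arrays, with all 20 higher in KO, none past the threshold, and Ckmt2, Atp2a1 and Pygm first by p. Their summed level was 3434 to 4481 in KO skin and 795.3 to 3003 in WT skin. S100a1, a calcium sensor best known in striated muscle and named after its values were seen, read 2.28, 2.47 and 2.24 in KO skin, against 1.95, 2.27 and 1.95 in WT skin (difference 0.28, adjusted p = 0.486). T cell markers were lower for all 6 measured of 8 listed, with a median of −0.95. Cd247 among them was well above background on 1 KO and 3 WT arrays, and passed the filter through the WT group. With probes above background on all 6 arrays, the T cell median was −1.16. Cd3g, part of the receptor by which T cells sense antigen, was the only gene of any list here to pass (−1.32, adjusted p = 0.0464), ahead of Cd3e and Cd3d (−1.16 and −1.19). The call of Cd3g was lost under 8 of 15 tested alternatives, with adjusted p of 0.0187 to 0.457 over the 15. The medians were −0.15 for macrophage markers (8 of 9 measured, led by Cd163 at 0.83 and Adgre1 at −0.45), −0.19 for fibroblast markers (7 of 7, led by Col1a1 at −0.24 and Fbln1 at −0.31) and −0.26 for white adipocyte markers (7 of 7, led by Lep at −1.78 and Cfd at 0.65). The part of these cells in the values of the complex was not tested.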

How the data were processed

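Skin RNA of 3 KO and 3 WT mice was measured on 1-colour arrays. The deposited intensity of each spot is the output of Agilent Feature Extraction 11.5.1.1, per the file headers, and is not normalized between arrays. The other deposited columns used here are flags of 0 or 1 for signal over background, saturation and outliers, per the file headers. The authors also deposited a log2 value table. Each of its columns followed the scanner values of the array of the other genotype with the same replicate number (correlations 0.998 to 1.00 after removing probe means) and not the array of its heading (−0.624 to −0.230), so its headings were not used. The submitters' processing notes name limma, without settings.

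Accessions were matched to RefSeq symbols (GRCm38.p6), naming 27497 of 55681 probes. The array grid refers to mm9, so no probe coordinates are given. Values tested were log2 processed signal minus the array's 75th percentile, without outlier spots. A probe was kept (30082 were) where every array of 1 group or more had it well above background, and the brightest kept probe stood for its gene. All 22823 genes were fitted with limma 3.58.1 in R 4.3.3 (lmFit, eBayes, two-sided), with Benjamini-Hochberg adjustment over all genes and a threshold of 0.05. P-values measure the spread between these animals only.

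Members, gene lists and tests were chosen with earlier results of these data known. Named in full are Lor, Ivl and the fused S100 genes. In each of Lce, Sprr and S100a the 4 members with the smallest p, the brightest, the dimmest and those with the largest and smallest spread are named, and in other lists the 2 to 3 genes with the smallest p. Lists are described by counts and medians, without a test. Same-numbered KO and WT arrays did not deviate together (correlations −0.13, −0.04 and 0.08), and pairs with different numbers gave −0.08 to 0.13. With 3 arrays per group, these values cannot decide whether the numbers pair the animals. The main fit used no pairing. The fit was tested on simulated data. The closing section gives the alternatives: other normalization, scaling, filters and probe choice, slide, replicate number and age in the model, and arrays left out.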

Additional observations from a re-analysis of the deposited data

How the results depend on the processing

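No member was called under any tested alternative (0 of 41, of 54 without the filter on dim probes and of 39 with probes above background on all 6 arrays), against 5 genes called across the whole table. That table count was 8 with normexp correction and quantile normalization, run on median signal as chosen after seeing the data, since the planned version on mean signal was not run. It was 2 without the filter on dim probes, 9 with probes above background on all 6 arrays, 15 with median scaling, 1 with slide as a block, 141 with age as a covariate and 0 without KO replicates 1 and 2. Leaving out each array in turn gave 2 to 303 (88 without KO replicate 3, 303 without WT replicate 1). With the replicate block it was 0, where 2217 genes had an unadjusted p under 0.05. Sox4 and Cd3g lost their calls with the block (adjusted p = 0.103 and 0.438), and it changed no call of a member. Sox4 was also lost without KO replicates 1 and 2 (adjusted p = 0.145). The count of members with every KO array below every WT array was 7 (11.8% of all genes), and 4 with normexp (11%), 4 with median scaling (7.79%), 7 to 19 over the arrays left out (15.1% to 27.7%) and 27 without KO replicates 1 and 2 (24.7%). This last setting leaves KO replicate 3 as a lone array, assumed to vary like the others, and gave medians of −0.33 for Lce and −1.10 for Sprr. Age as a covariate gave 0.13 for Lce, in a fit that cannot fully separate age from genotype. Over the arrays left out the medians ran from −0.21 to 0.099 for Lce (0.099 without KO replicate 3), from −0.82 to −0.17 for Sprr and from −0.27 to −0.025 for S100a. The Sprr median was −0.56 with probes above background on all 6 arrays, −0.077 with the mean over probes and −0.035 within slide 2. Within slide 1 the S100a median was 0.021, the fused S100 median −0.064, Ivl 0.17 and Lor −0.25, and within slide 2 Lor was −0.11. Of 373 values of 25 named members under tested alternatives, 358 kept their direction. The others were S100a13 (0.053 with normexp, 0.030 with median scaling, 0.081 without KO replicates 1 and 2, −0.043 to 0.059 over the arrays left out), Sprr1b (−0.45 with age, −0.13 without WT replicate 1 to 0.88 over the arrays left out), Sprr2h (−0.82 without KO replicate 1 to 0.85 over the arrays left out, −1.10 without KO replicates 1 and 2), Lce1g (−0.016 without KO replicate 2 to 0.72 over the arrays left out, −0.47 without KO replicates 1 and 2), Crnn (−0.34) and S100a3 (−0.14), the last 2 without KO replicates 1 and 2. Of 25 values within slide 1, which carry no test, 8 turned: besides Ivl these were Hrnr (0.28), Lce1m (0.040), S100a4 (0.100), S100a13 (0.13), Crnn (−0.077), Lce1g (−0.53) and Sprr2h (−0.42). Within slide 2 Rptn turned (0.0068). Where fewer arrays do not account for a change, the cause was not tested.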
